A study of Mus musculus with 6 samples.

Results

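Alx1, Alx4, Msx1, Msx2, Six2, Tfap2a, Tfap2b and Zic1 are transcription factor genes that pattern the head skeleton, and 34 of the 89410 accessible regions of the series lay at them. The members were these 8 genes of the 49943 in the annotation, chosen by name, with no measured value in the rule. A region was counted at a gene when it overlapped the RefSeq span of the gene, in the mouse genome GRCm38, extended by 50 kb at each end.

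The regions came from an assay for transposase-accessible chromatin with sequencing (ATAC-seq), in which the transposase Tn5 cuts DNA that is not packed away, so that open promoters and enhancers stand out as peaks. OB Fam20c f/f is an immortalized mouse osteoblast line that carries a floxed Fam20c, the gene of a kinase for secreted proteins. OB Fam20c KO was derived from it, according to the study's methods, with a Cre recombinase lentivirus, so that both groups share the immortalization and the floxed background. The sources used here name a virus for the KO cells only and do not say whether the KO cells are 1 clone. There were 3 libraries of 50000 cells in each group. The sources used here give no age of the cells, no time after infection, no part of the skeleton from which the line came and no word on whether replicates were separate cultures, so that a p-value below measures the spread between these libraries only, which may be technical.

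These factors act early in the making of the face and skull. Much of the face and of the front of the skull vault forms from the cranial neural crest. Alx1 and Alx4 are homeodomain factors of the frontonasal mesenchyme. Msx1 and Msx2 are homeodomain factors that respond to bone morphogenetic proteins and act in teeth, sutures and skull bones. Six2 is a homeodomain factor of head and kidney mesenchyme, Tfap2a and Tfap2b are AP-2 factors of the neural crest, and Zic1 is a zinc finger factor of the neural plate border. The crest cells that build the upper face do not express Hox genes, whereas mesenchyme of the trunk and limbs does. An open region near a gene is not evidence that the gene is transcribed, and transcripts were not measured in these files.

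The promoters of Msx1, Msx2 and Six2 lay under a peak in 6 of 6 libraries, a promoter of Tfap2a lay under a peak in the 3 f/f libraries and in none of the 3 KO libraries, and the promoter of Zic1 lay under none. These 5 are shown because the 3 patterns separate them. Each is the 250 bases before the transcription start, read 5′ to 3′ from the RefSeq promoter sequences of GRCm38.p6. Capitals mark matches on either strand to the CCAAT box, to the motif TAATTA and to the motif GCCNNNGGC. Each stretch ends at the base before the start site, and for Tfap2a the downstream one of its 2 entries is given.
Msx1 (chr5:37824586-37824835, minus strand): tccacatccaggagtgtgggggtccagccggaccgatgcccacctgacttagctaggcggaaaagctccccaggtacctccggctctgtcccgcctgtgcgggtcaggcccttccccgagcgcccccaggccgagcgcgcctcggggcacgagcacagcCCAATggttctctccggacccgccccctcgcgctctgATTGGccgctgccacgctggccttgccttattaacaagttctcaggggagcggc
Msx2 (chr13:53472781-53473030, minus strand): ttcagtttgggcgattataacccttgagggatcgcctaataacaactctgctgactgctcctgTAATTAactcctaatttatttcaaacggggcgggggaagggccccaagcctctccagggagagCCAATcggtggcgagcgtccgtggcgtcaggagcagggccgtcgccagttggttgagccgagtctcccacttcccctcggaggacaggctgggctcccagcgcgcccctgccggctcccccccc
Six2 (chr17:85688255-85688504, minus strand): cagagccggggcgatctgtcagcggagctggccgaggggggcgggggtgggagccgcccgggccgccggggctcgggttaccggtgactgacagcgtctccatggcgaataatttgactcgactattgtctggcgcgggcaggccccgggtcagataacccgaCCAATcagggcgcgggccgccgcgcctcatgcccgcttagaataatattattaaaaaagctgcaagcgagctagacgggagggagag
Tfap2a (chr13:40733796-40734045, minus strand): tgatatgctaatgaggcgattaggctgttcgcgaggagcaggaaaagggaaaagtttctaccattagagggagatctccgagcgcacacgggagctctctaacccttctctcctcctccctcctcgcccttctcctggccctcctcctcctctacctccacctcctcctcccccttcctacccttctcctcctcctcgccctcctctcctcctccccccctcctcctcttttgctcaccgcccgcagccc
Zic1 (chr9:91365769-91366018, minus strand): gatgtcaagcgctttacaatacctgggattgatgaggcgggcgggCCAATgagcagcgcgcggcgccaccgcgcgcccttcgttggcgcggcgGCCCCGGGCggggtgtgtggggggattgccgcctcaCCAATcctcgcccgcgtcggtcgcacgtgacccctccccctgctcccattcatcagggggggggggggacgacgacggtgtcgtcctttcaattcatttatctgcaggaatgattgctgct

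The Tfap2a stretch held none of the 3 motifs and was 70.0% C or T, and the Zic1 stretch held CCAAT in 2 places and GCCNNNGGC in 1. CCAAT is the box that NF-Y binds, TAATTA is the core of homeodomain sites and GCCNNNGGC is the core of AP-2 sites. In the full window of 300 bases, which adds 50 bases after the start, CCAAT was found in 4 of the 7 member promoters and in 37.4% of all 32851 promoters. TAATTA was found in 2 of the 7 and in 5.29% of all, and GCCNNNGGC in 1 of the 7 and in 16.6% of all. The E-box CAGCTG, the AP-1 site TGACTCA and the Runx core AACCACA were found in 0 of the 7, and in 16.3%, 5.20% and 5.27% of all. GCCNNNGGC reads alike on both strands, as do TAATTA and CAGCTG, and none of the 3 motifs in capitals overlapped another here. RefSeq promoter entries matched 6 of the 8 genes, with 2 entries for Tfap2a. No entry was used for Alx1 and Alx4.

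Peaks were ranked within each library's own list by −log10 q, the significance of the peak over its local background as MACS2 gives it, and the percentile of a peak in its list is called its standing, with 100 as the highest and 0 where the library had no peak in the region. The lists held 62781 to 74797 peaks in the 3 f/f libraries, 64141 and 64582 in KO replicates 1 and 2, and 32958 in KO replicate 3. The lists give no read depth, so no counting interval is given, and a missing peak means that none passed the authors' threshold in that library. KO replicate 3 had a peak in 35.8% of all regions against 68.8% to 82.7% in the others. Results are therefore also given without it, or as percentiles among the 29849 regions that all 6 libraries share. The number of regions ranked is then the same in every library. A region without a peak in the short list of KO replicate 3 has no such rank. Chromosome 13, which carries Msx2 and Tfap2a, differed from the pool of all other chromosomes. Where all 3 f/f libraries had called a region on it, 12.9% of these regions were missing from every KO list, against 5.95% elsewhere. The targeted gene cannot be checked from peaks, which do not show a deletion. Fam20c had 11 regions, of which 6, 5 and 8 carried a peak in the f/f libraries and 7, 4 and 3 in the KO libraries. The label of the cells was checked at osteoblast genes. A region with a peak in all 6 libraries lay at 10 of 10 osteoblast markers, among them Runx2, Sp7 and Col1a1, and inside the gene span at 8 of 10, all but Ibsp and Bglap. Over all protein-coding genes the shares were 78.3% within 50 kb and 60.4% inside the span. Of 16 markers of other cell types, such as Ptprc, Cdh5 and Krt5, 11 had such a region within 50 kb and 3 had one inside the span, namely Cdh5, Pecam1 and Acan, or 68.8% and 18.8%.

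Of the 34 regions at the 8 genes, 10 had a peak in all 6 libraries, or 29.4%, close to the 33.4% of all regions. These 10 lay at 5 genes, with 3 at Msx1, 3 at Six2, 2 at Msx2 and 1 each at Alx1 and Tfap2a. A further 11 regions, or 32.4%, had a peak in every library except KO replicate 3, against 19.2% of all regions. Only 1 region, at Tfap2a, was f/f-only, with a peak in 3 of 3 f/f and 0 of 3 KO libraries, where 3.75% of all regions were. No region was KO-only, and 0.179% of all regions were. At Alx4, 1 region was called in KO replicates 1 and 2 but in none of the f/f libraries, or 2.94% of the 34 against 2.9% of all regions.

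**Figure D1:**
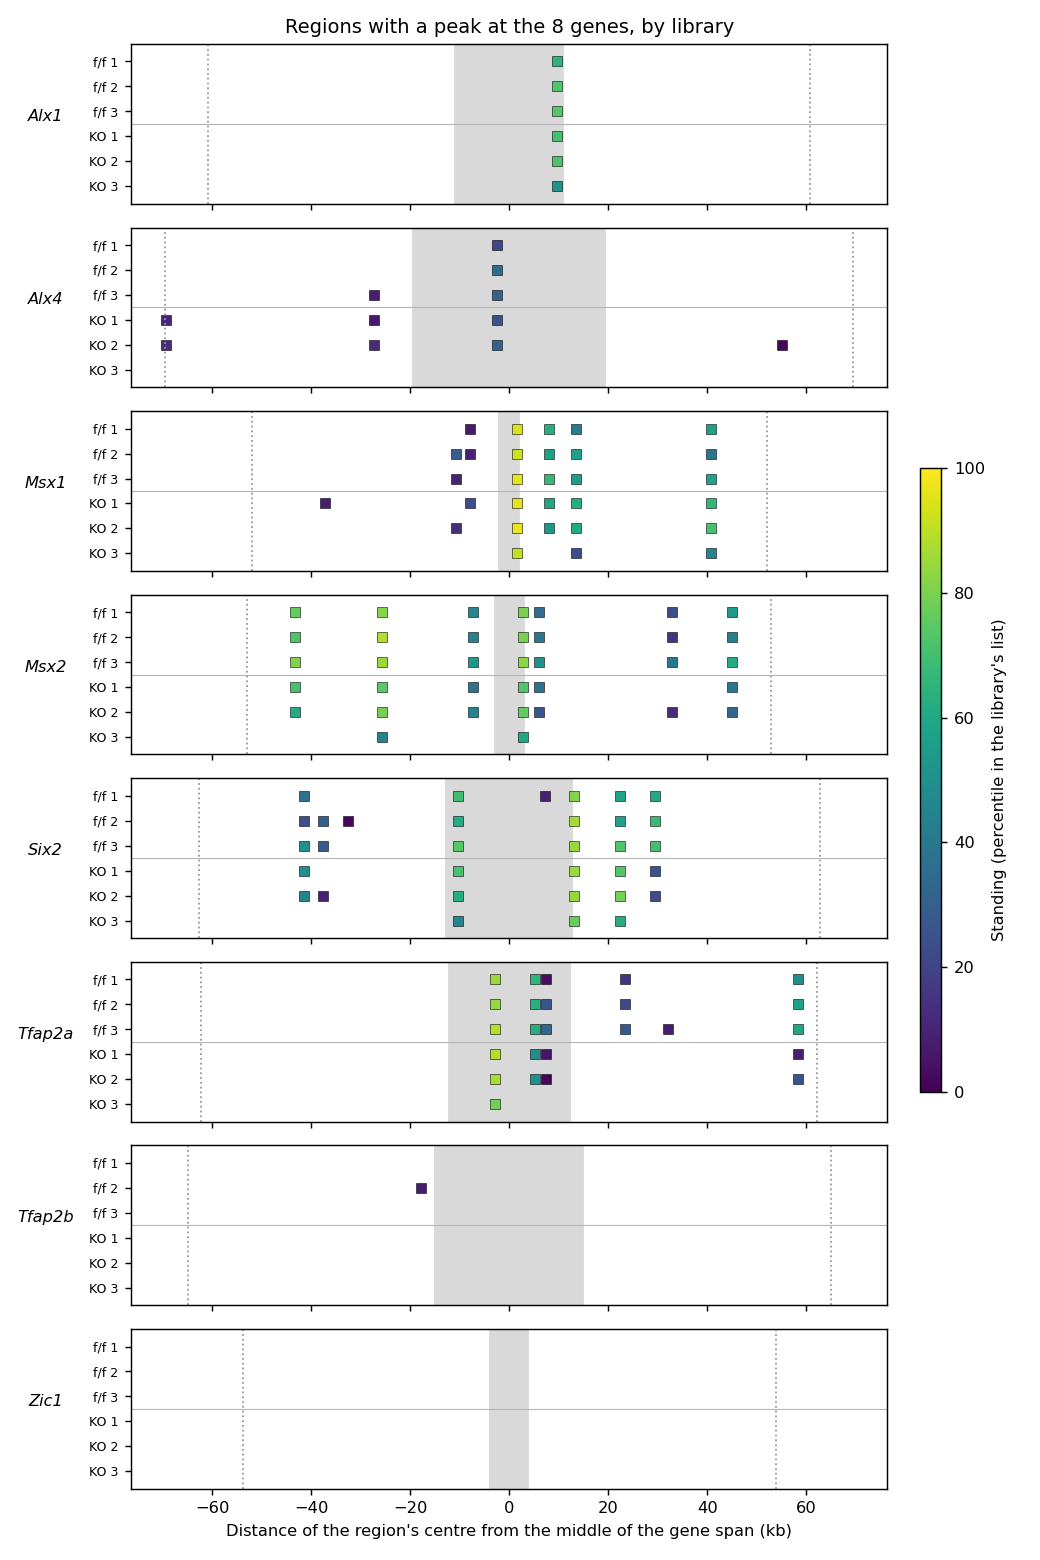
Regions within 50 kb of each gene, by library. The x axis gives the distance in kb of the region's centre from the middle of the gene span, rows are libraries, squares are peaks coloured by standing, grey bands are gene spans and dotted lines the ends of the 50 kb extension. Msx1, Msx2, Six2 and Tfap2a carried 6 to 8 regions each, Alx1 and Tfap2b carried 1, and the Zic1 panel is empty in all 6 libraries.

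The 34 regions were wider than regions in general, with a median of 866 bp against 639 bp, and their median standing, averaged over the libraries, was 33.7 against 23.8. Of the 34, 10 lay inside the span of the member and 29 had the member as their nearest protein-coding gene. The exceptions were 3 regions nearest to Six3 in the Six2 window, 1 in Ext2 in the Alx4 window and 1 nearest to Gm38564 in the Msx2 window. A peak in 1 library only was found in 6 regions, or 17.6%, against 19.8% of all regions.

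At Msx1 (gene 17701, chr5:37820491-37824585) all 6 libraries had one of their higher peaks over the gene's 5′ end. The region chr5:37823382-37824920 stood at 94.3, 92.2 and 96.1 in the f/f libraries and at 96.1, 97.1 and 90.8 in the KO libraries. Its fold over the local background was 13.1, 9.95 and 11.7 in f/f and 13.6, 14.5 and 9.14 in KO. The groups overlapped on both scales, and the summits lay within 54 bases of the start site in every library. The KO mean exceeded the f/f mean by 0.46 percentile points (94.7 ± 3.35 against 94.2 ± 1.96, SD, n = 3, exact permutation test, two-sided, p = 0.9). All 3 against 3 tests here run over 20 assignments of the libraries and cannot give a p below 0.1. Compared with the highest region at each of 21887 protein-coding genes, this one stood at the 70.6th percentile.

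The 6 other regions at Msx1 lay outside the gene. Of these, 2 had a peak in every library, both on the upstream side. At chr5:37835630-37836627, in the long non-coding RNA gene Gm33993, the standing was 41.2, 57.2 and 54.9 in f/f and 62.7, 60.2 and 23.1 in KO, and the groups overlapped. At chr5:37862918-37863714, which lies 38333 bp from the gene, it was 57.1, 38.3 and 57.6 in f/f and 66.2, 70.8 and 45.4 in KO. Ranked only among the 29849 shared regions, that element stood at 21.1, 7.03 and 14.2 in f/f and at 30.5, 37.9 and 40.4 in KO. There the groups did not overlap, and the KO mean was higher by 22.2 points (36.3 ± 5.16 against 14.1 ± 7.04, SD, n = 3, exact permutation p = 0.1, the smallest possible). Every KO rank was likewise above every f/f rank in 21.1% of all shared regions, and by standing the groups overlapped at this element. A further region, chr5:37830052-37831082, had a peak in every library but KO replicate 3, and the last 3 were weak, with standings of at most 29.0 where a peak was called.

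Msx2 (gene 17702, chr13:53466881-53472780) had 7 regions, and all 7 had a peak in each f/f library. The KO libraries had a peak in 6, 7 and 2 of them. In 6 of the 7, every f/f standing was above every KO standing, an order found in 20.3% of all regions and in 43.5% of those on chromosome 13. The region with the highest standing was not the promoter but chr13:53443679-53444643, inside the long non-coding RNA gene Gm2762 and 22238 bp downstream of Msx2. It stood at 81.8, 87.9 and 85.5 in f/f and at 74.5, 79.0 and 44.0 in KO, a difference of −19.3 points (65.8 ± 19.0 in KO against 85.1 ± 3.08 in f/f, SD, n = 3, exact permutation p = 0.1). Without KO replicate 3 the difference was −8.34 points, with the groups still apart (exact permutation p = 0.1, again the smallest possible). Its fold was 11.9, 12.5 and 11.8 in f/f and 13.1, 16.1 and 5.99 in KO, where the groups overlapped. Without KO replicate 3 the fold was higher in KO by 2.53 with the groups apart (exact permutation p = 0.1). The direction without that library therefore depended on the scale. The higher fold was not particular to this region. Without KO replicate 3 it was found at every member region with a peak in all 6 libraries, by 0.38 to 5.46.

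The promoter region of Msx2, chr13:53472110-53473176, stood at 80.1, 79.9 and 82.5 in f/f and at 72.7, 75.9 and 58.9 in KO. Ranked among the shared regions it stood at 57.8, 58.0 and 56.5 in f/f and at 42.4, 48.2 and 55.0 in KO. The element in Gm2762 stood on that scale at 61.3, 74.7 and 63.8 in f/f and at 45.8, 54.8 and 38.9 in KO. Both pairs of groups lay apart, by −8.94 points at the promoter (48.5 ± 6.30 against 57.4 ± 0.83, SD, n = 3, exact permutation p = 0.1) and by −20.1 points at the element in Gm2762 (46.5 ± 7.96 against 66.6 ± 7.12, SD, n = 3, exact permutation p = 0.1). By the authors' fold the order was not the same. At the promoter the fold was 11.0, 8.56 and 9.12 in f/f and 9.99, 11.1 and 7.60 in KO, and the groups overlapped.

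The shared regions of chromosome 13 as a whole leaned in the same direction as these ranks at Msx2. Among shared regions of chromosome 13, every f/f rank was above every KO rank in 53.7%, against 19.8% on all other chromosomes, and the median rank was 56.4 to 57.5 in the f/f libraries and 45.9 to 48.8 in the KO libraries. The part of the chromosome in the Msx2 and Tfap2a values was not tested.

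Six2 (gene 20472, chr17:85662736-85688254) had 8 regions, with a peak in 6, 7 and 6 of them in f/f and in 5, 6 and 3 in KO. Its highest region, chr17:85687543-85689547, covered the promoter and was the widest of the 34 at 2005 bp. It stood at 81.4, 86.5 and 84.8 in f/f and at 84.8, 83.8 and 77.0 in KO, so that the groups overlapped (81.9 ± 4.24 in KO against 84.2 ± 2.60 in f/f, SD, n = 3, exact permutation p = 0.6). The summits lay 159 to 246 bases before the start site.

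Beyond the Six2 promoter, a pair of elements lay inside the long non-coding RNA gene CJ186046Rik. The groups lay apart at the nearer by rank among shared regions, with KO higher, but overlapped by standing. At the farther they lay apart by standing, with f/f higher, and it has no rank among shared regions. No 1 scale thus set the pair in opposite directions. The nearer, chr17:85697354-85698523 at 9100 bp from the gene, had a peak in all 6 libraries and stood at 57.9, 57.4 and 72.5 in f/f and at 73.3, 78.5 and 62.1 in KO. Ranked among shared regions it stood at 21.9, 20.9 and 34.6 in f/f and at 43.5, 53.8 and 58.4 in KO, higher in KO by 26.1 points (51.9 ± 7.66 against 25.8 ± 7.67, SD, n = 3, exact permutation p = 0.1). Every KO rank was above every f/f rank in 21.1% of all shared regions. The farther, chr17:85704389-85705543 at 16135 bp, stood at 59.9, 67.3 and 70.3 in f/f and at 25.5, 22.9 and 0 in KO. Its fold was 9.49, 9.11 and 11.4 in f/f and 5.04 and 4.76 in KO replicates 1 and 2. This was the largest f/f to KO gap of the 34 regions, −49.7 points (exact permutation p = 0.1, the smallest possible) and −41.6 points without KO replicate 3. The KO libraries lay far below the lowest f/f library in each case. Both elements were named after their values were seen, and 20.3% of all regions had every f/f standing above every KO standing. The farther element was also the only region off chromosome 13 among the 10 member regions in which every f/f standing was above every KO standing. Inside the Six2 span, chr17:85664515-85665646 had a peak in all 6 libraries and chr17:85682684-85682977 in f/f replicate 1 only. On the downstream side 3 regions lay nearer to Six3, a forebrain and eye factor.

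**Figure D2:**
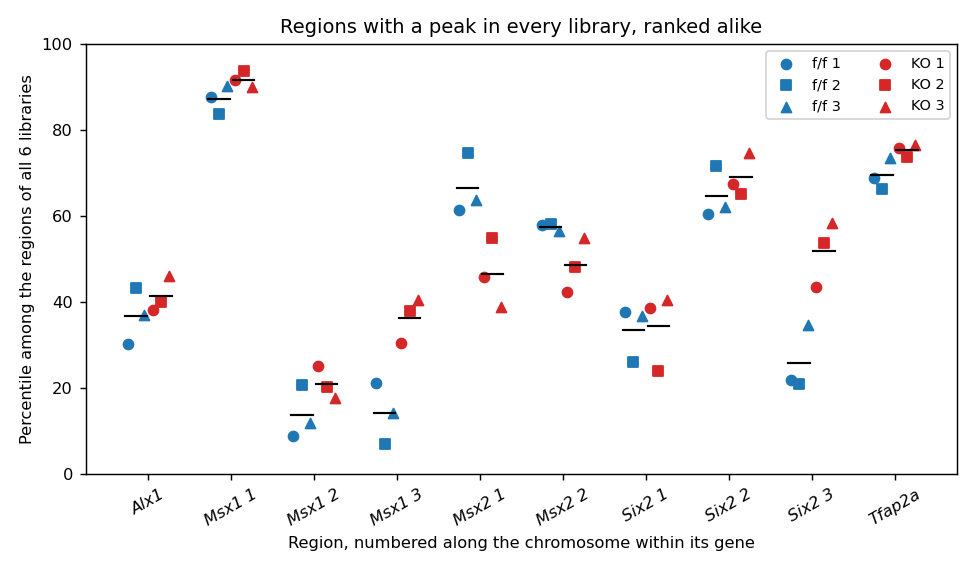
The 10 member regions with a peak in every library. The y axis gives the percentile of the region among the 29849 regions shared by all 6 libraries, points are libraries (blue f/f, red KO) and bars are group means of 3. The groups lie apart with KO higher at Msx1 3, Six2 3 and Tfap2a and with f/f higher at both Msx2 regions.

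Over the 10 shared regions, every KO rank was above every f/f rank in 3, where 21.1% of all shared regions were, and every f/f rank was above every KO rank in 2, where 20.9% were. With all regions and standings, every f/f standing was above every KO standing in 10 of the 34, or 29.4% against 20.3%, and the reverse held in 0, against 1.58%. Of those 10, 6 were at Msx2, 3 at Tfap2a and 1 at Six2. The 13 regions at Msx2 and Tfap2a gave 9 of the 10, or 69.2%, where 43.5% of all chromosome 13 regions had this order. The 21 regions of the other 6 genes gave 1, or 4.76%, where 19.4% of regions off chromosome 13 had it.

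Tfap2a (gene 21418, chr13:40713802-40738238) had 6 regions, of which 5, 5 and 6 carried a peak in f/f and 4, 4 and 1 in KO, a difference of −2.33 regions (3 ± 1.73 against 5.33 ± 0.58, SD, n = 3, exact permutation p = 0.1). Without KO replicate 3 the difference was −1.33 regions (exact permutation p = 0.1). The region highest in standing lay inside the gene, chr13:40722582-40723579. It stood at 85.4, 83.9 and 89.4 in f/f and at 88.7, 87.9 and 78.6 in KO, and the groups overlapped. Ranked among shared regions it was at 68.9, 66.3 and 73.5 in f/f and at 75.8, 73.8 and 76.5 in KO, where every KO library was higher, by 5.75 points on average (75.3 ± 1.39 against 69.6 ± 3.65, SD, n = 3, exact permutation p = 0.1). On chromosome 13 as a whole, 6.88% of shared regions had this order.

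Of the other Tfap2a regions, 3 had every f/f standing above every KO standing, an order found in 43.5% of all chromosome 13 regions. At chr13:40730574-40731884, in the span and in its antisense long non-coding RNA gene Gm26688, the standing was 65.2, 62.5 and 62.0 in f/f and 49.2, 51.0 and 0 in KO. At chr13:40783958-40784772, which lies 45720 bp upstream, it was 49.4, 56.3 and 59.4 in f/f and 8.35, 25.7 and 0 in KO. The f/f-only region, chr13:40748994-40749826 at 10756 bp upstream, stood at 15.4, 21.6 and 27.9 in f/f, which is low in each list. One more region, at 19775 bp, was called in f/f replicate 3 only. ATAC-seq does not tell Tfap2a from its antisense gene where they overlap.

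Around the start sites of Tfap2a the lists differed in the place of the nearest summit. The region chr13:40732809-40734209 stood at 3.47, 26.3 and 32.6 in f/f and at 5.64, 1.63 and 0 in KO, so that the groups overlapped. The nearest summit to the downstream start lay within 154 bases of it in the 3 f/f libraries, and 924 and 898 bases beyond it in KO replicates 1 and 2. In KO replicate 3 it lay 10808 bases away. The promoter window of 300 bases was accordingly met by a peak in 3 of 3 f/f and 0 of 3 KO libraries. That is 1 of the 7 member promoters, where 0.393% of all promoters were f/f-only, and 0 of the 7 were KO-only, where 0.107% were. The window at the upstream start was met in 0 of 6 libraries.

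Alx1 (gene 216285, chr10:103007847-103029549) had a single region, chr10:103027842-103029023, inside the span and also inside the neighbouring gene Gm34298, and it carried a peak in all 6 libraries. It stood at 64.5, 72.5 and 73.7 in f/f and at 70.6, 71.9 and 50.7 in KO (64.4 ± 11.9 against 70.2 ± 4.99, SD, n = 3, exact permutation p = 0.5). KO replicate 3 was the lowest and the other libraries overlapped. Ranked among shared regions the libraries stood at 30.3, 43.3 and 37.0 in f/f and at 38.2, 40.1 and 46.1 in KO, where the sign of the difference turned (4.62 points, exact permutation p = 0.4).

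Alx4 (gene 11695, chr2:93642434-93681341) had 4 regions, none of them in all 6 libraries. The one inside the gene, chr2:93658961-93660003, stood at 20.6, 35.3 and 32.0 in f/f and at 25.5, 31.4 and 0 in KO. It was absent in KO replicate 3 and overlapped between the groups otherwise. A region at the edge of the window, chr2:93592388-93592682, which lies 49752 bp from the gene and so just inside the 50 kb limit, stood at 10.5 and 12.3 in KO replicates 1 and 2 and at 0 in the other 4 libraries. Counted over the window, the f/f libraries had a peak in 1, 1 and 2 regions and the KO libraries in 3, 4 and 0, a difference of 1 region (exact permutation p = 0.6). Without KO replicate 3 the difference was 2.17 regions and the groups lay apart (exact permutation p = 0.1, the smallest possible). The regions outside the gene were weak, with standings of at most 12.3 where a peak was called. The one in Ext2 was called in KO replicate 2 only, at 1.40.

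Tfap2b (gene 21419, chr1:19208908-19238845) had 1 weak region, chr1:19205840-19206419, called in f/f replicate 2 alone at a standing of 7.91. It lies 2489 bp outside the span. The promoter window was met by no peak.

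Zic1 (gene 22771, chr9:91358058-91365768) had no region in any of the 6 libraries, and its window also holds Zic4, which likewise had none. The nearest region of any library lay 616 kb from the Zic1 span, and 755 of the 21887 protein-coding genes, or 3.45%, had their nearest region as far away or farther. By library, the nearest summit was 885, 809 and 617 kb from the start site in f/f and 616, 616 and 885 kb in KO.

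The Zic1 promoter window is rich in CpG, with 31 in 300 bases against a median of 7. Of the 3469 promoter windows with 31 or more CpGs, 85.4% met a peak in all 6 libraries and 7.75% met none. Over all 32851 promoter windows, 36.6% met a peak in all 6 and 55.8% met none. Msx1 and Six2, with 29 and 37 CpGs, were met in all 6 libraries and Msx2, with 22, was too. The windows of Tfap2a had 15 at the downstream and 11 at the upstream start, and that of Tfap2b had 8.

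**Figure D3:**
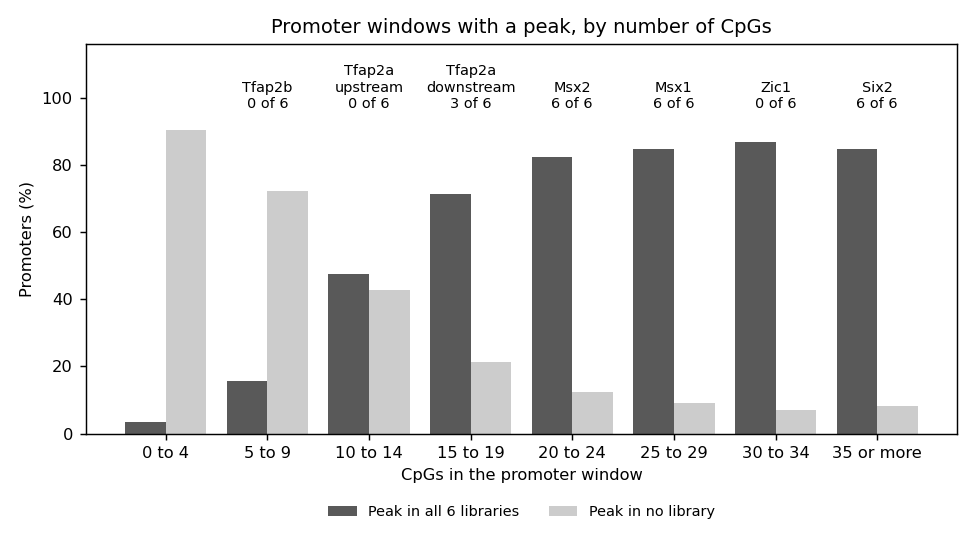
Share of promoter windows (%, y axis) with a peak in all 6 libraries (dark bars) or in none (light bars), by the number of CpGs in the window of 300 bases (x axis). Names above the bars give each member promoter and the number of libraries with a peak over it. Zic1 has 0 of 6 in a class where 86.7% of windows had a peak in all 6.

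By the mean standing of the highest region, the order of the genes was Msx1 at 94.4, Tfap2a at 85.7, Six2 at 83.0, Msx2 at 75.5, Alx1 at 67.3, Alx4 at 24.1 and Tfap2b at 1.32, with Zic1 last and without a region. Msx1 was above Tfap2a, and Alx1 above Alx4, in 6 of 6 libraries and with ranges that did not meet. Between Tfap2a and Six2, Six2 and Msx2, and Msx2 and Alx1 the ranges of the libraries overlapped. Tfap2a was above Six2 in 5 libraries, Six2 above Msx2 in 3 and Msx2 above Alx1 in 5. Among the highest regions of all 21887 protein-coding genes, Msx1 was at the 70.6th percentile and Tfap2a at the 42.5th. On that scale Six2 was at 38.4, Msx2 at 30.99, Alx1 at 26.8, Alx4 at 18.1, Tfap2b at 13.8 and Zic1 at 6.69. All but Msx1 were thus below the median protein-coding gene.

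**Figure D4:**
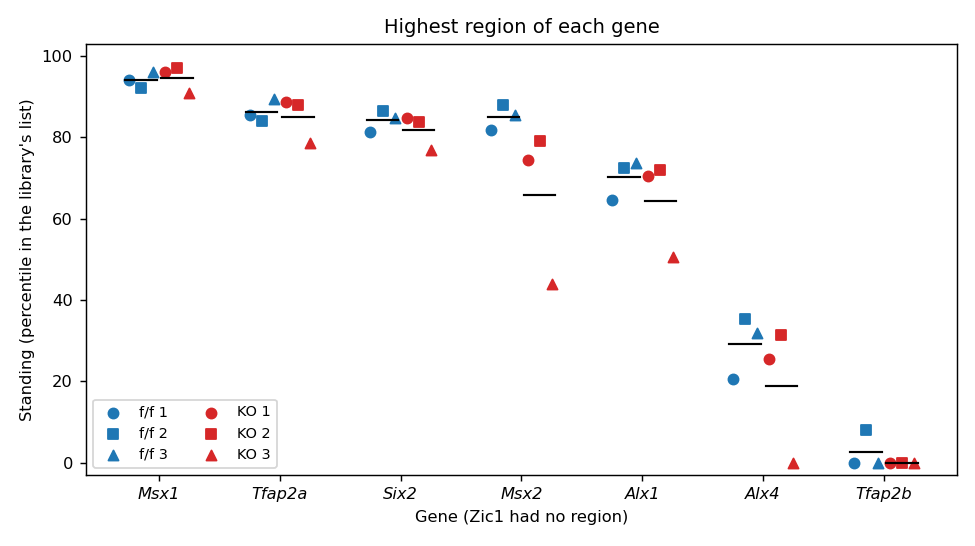
Standing of the highest region of each gene (y axis, percentile in the library's own list) in the 3 f/f (blue) and 3 KO (red) libraries, with group means as bars. Msx2 is the gene whose groups lie apart, with f/f at 81.8 to 87.9 and KO at 44.0 to 79.0.

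In each library, peaks were called in 25, 28 and 27 of the 34 regions in f/f and in 25, 27 and 10 in KO. The KO mean was lower by 6 regions (20.7 ± 9.29 against 26.7 ± 1.53, SD, n = 3, exact permutation p = 0.5), and without KO replicate 3 the difference was −0.67 regions (exact permutation p = 0.8). KO replicate 3 alone fell below the others, with 29.4% of the member regions, close to the 35.8% of all regions that it called. At the 6 genes off chromosome 13 the libraries had peaks in 13, 16 and 14 of 21 regions in f/f and in 15, 16 and 7 in KO (exact permutation p = 0.9). At Msx2 and Tfap2a they had peaks in 12, 12 and 13 of 13 regions in f/f and in 10, 11 and 3 in KO (exact permutation p = 0.1).

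The paralogs of the 8 genes also ranged from open to empty. Of 14 paralogs, 9 had a region with a peak in all 6 libraries and 2 had no region, against 5 and 1 of the 8 genes and against 78.3% and 13.4% of all protein-coding genes. Among those with the most such regions were Six5 with 6, Six4 with 5 and Msx3 with 4. None of the 4 lay inside the Msx3 span, and that window holds 5 other protein-coding genes. Inside the gene span alone, 5 of the 14 paralogs had such a region, or 35.7%, against 60.4% of all protein-coding genes. Six6 with 4 regions and Tfap2d with 2 had none in all 6 libraries, and Zic4 had no region. The median number per gene was 2 in the paralogs and 1 in the 8 genes, where all protein-coding genes had a median of 3.

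The wider list of 27 cranial mesenchyme and neural crest factors had a region with a peak in all 6 libraries at 24, or 88.9%, against 78.3% of all protein-coding genes. Prrx2, a homeodomain factor of craniofacial and limb mesenchyme, had 15, Ets1 had 9, Prrx1 had 8 and Sox10, a factor of crest and glia, had 6, none of these last inside the Sox10 span. The fewest were at Twist1, a factor of cranial sutures, with 1, and at Foxd3, Hand2 and Otx2 with 0. Foxd3 marks early neural crest and Otx2 the forebrain and midbrain. Of the 256 regions of this list, 8 were f/f-only, or 3.1%, near the 3.75% of all regions. KO-only was 1, at Pax3, where 0.179% of all regions were.

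Factors that mark position in the trunk and limbs were also open at most genes. Of 20, 18 had a region with a peak in all 6 libraries and the median was 5 per gene, against 24 of 27 and a median of 2 for the cranial list. All protein-coding genes had such a region in 78.3%, with a median of 3. Hoxa5, Hoxa9, Hoxa10 and Hoxc10 had 8 each. Hoxd13 and Tbx18 had 1 each, and Tbx5, a forelimb factor, and Meox2, a somite factor, had no region. Windows of neighbouring Hox genes overlap, so that these 20 genes had 85 different regions, and inside the gene span alone 8 of the 20 had a region in all 6 libraries, against 19 of 27 in the cranial list, 5 of the 8 genes (62.5%) and 60.4% of all protein-coding genes. The share of the 8 genes was thus near that of genes in general. These are descriptions of lists of unequal gene density, and no test was made between them.

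**Figure D5:**
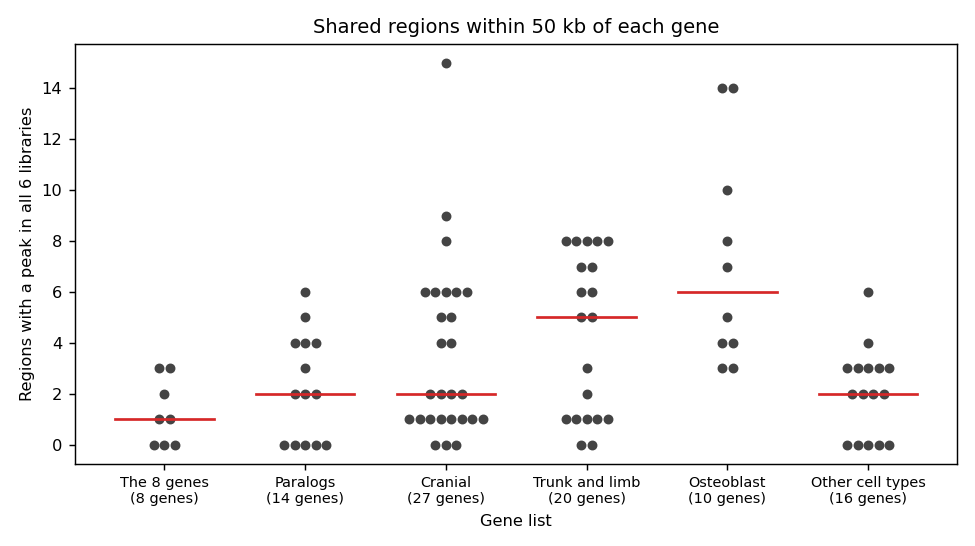
Number of regions with a peak in all 6 libraries (y axis) within 50 kb of each gene, for the 8 genes and the comparison lists, with 1 point per gene and the median as a red bar. The medians were 1 for the 8 genes, 2 for their paralogs and for the cranial list, 5 for the trunk and limb list, 6 for osteoblast markers and 2 for markers of other cell types.

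The genes of these lists whose highest region had the most similar 6 standings, by the mean absolute difference over the 6 libraries, were Hoxc8 for Msx1 at 2.22 points, Meox1 for Tfap2a at 1.73, Nr2f1 for Msx2 at 4.69, Uncx for Alx1 at 4.37 and Tfap2c for Alx4 at 12.1. Nr2f1, like Msx2, lies on chromosome 13. It stood at 76.2, 79.1 and 80.0 in f/f and at 69.6, 75.6 and 44.0 in KO, again with the groups apart. Like Zic1, the genes Zic4, Tbx5 and Meox2 had no region within 50 kb.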

How the data were processed

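The members and the comparison lists were chosen with earlier results of these data known. Reads had been trimmed (Trimmomatic 0.36) and mapped to mm10 (BWA) by the authors, whose peak caller was MACS2 2.1.2 (q-value threshold of 0.05), as the study's methods state. Their deposited lists hold 1 set of peaks per library and give, per peak, the authors' score, the fold over the local background (a ratio), −log10 p and −log10 q, and the summit. The score is 10 times −log10 q and was not used on its own. The lists held 32958 to 74797 peaks and no read counts, so no count test could be run, and the treatment of duplicate reads is not given in the sources used here.

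The labels gave OB or KO and the replicate numbers, and that OB is the Fam20c f/f line was taken from the study's methods. All peaks, which lay on the 19 autosomes, X and Y, were merged where they shared 1 bp or more, and a library's value in a region was its highest peak. Gene spans were those of RefSeq on GRCm38.p6, whose coordinates mm10 shares, and all 8 genes matched. The groups were compared by two-sided exact permutation tests over 20 assignments, or 10 with 1 library left out. Adjustment over the 8 genes had been planned and is not given, because the genes were chosen with results known. The genes named are all members, for each its highest and group-specific regions, the gene of the other lists most alike in standing, and in 3 lists the 4 genes with most and the 4 with fewest regions shared by all libraries, apart from some that are not reported here. Other regions were named after their values were seen. Replicate numbers did not pair the libraries (correlations of deviations over shared regions of 0.07, −0.10 and −0.12 for replicates 1 to 3). Alternatives were a −log10 q of 5 or more, equal numbers of peaks, an overlap of 50%, spans extended by 3 kb, nearest regions only, a peak in at least 2 of 3 libraries, each library left out, ranking by fold or by place from the top and a replicate block. Ranks among shared regions and the 6 genes off chromosome 13 were added after the data were seen. Merging, grouping and tests were tested on simulated lists. The tools were pandas 2.3.3, numpy 2.4.6 and matplotlib 3.10.9 under Python 3.11.15.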

Additional observations from a re-analysis of the deposited data

How the results depend on the processing

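Differences are KO minus f/f, in percentile points of the highest region unless stated, and no p could pass 0.05 in this design. Taking equal numbers of peaks from each list left 17 regions at the 8 genes, of which 2 were f/f-only, and turned the difference positive at Alx1 (6.44), Six2 (4.06) and Tfap2a (5.26). With spans extended by 3 kb there were 12 regions, 6 of them in all 6 libraries and 0 f/f-only, since fewer regions fall in a smaller window. A peak in at least 2 of 3 libraries gave 1 KO-only region. Ranking by fold turned Msx1 to −0.87, Six2 to 3.66 and Tfap2a to 5.58, and took Alx1 from −5.86 to −12.9 with the groups apart (exact permutation p = 0.1). Counted in places from the top, KO was nearer the top by 2124 places at Alx1, 1338 at Six2 and 1734 at Tfap2a, and by 5623 at Alx4 and 11518 at Tfap2b, where a missing peak is placed after the last one of a list and so higher in the short list. Among the shared regions, an alternative chosen after seeing the data, Alx1 gave 4.62, Six2 4.36 and Tfap2a 5.75. At Tfap2a KO was higher with the groups apart here, with equal peak numbers, by fold and by places (exact permutation p = 0.1 each). The main difference at Tfap2a was −1.20 (exact permutation p = 0.8). Without Msx2 and Tfap2a, also chosen after seeing the data, 21 regions and 0 f/f-only regions were left.

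With each library left out in turn, the regions in all remaining libraries numbered 10 to 21, with 21 without KO replicate 3, the f/f-only regions 1 to 2, with 2 without f/f replicate 3 or without KO replicate 2, and the KO-only regions 0 to 1, with 1 without KO replicate 3. The difference ranged from −9.61 to 1.00 at Alx1, from −0.74 to 2.38 at Msx1, from −3.80 to 0.089 at Six2, from −3.01 to 2.02 at Tfap2a, from −23.6 to −8.34 at Msx2 and from −16.5 to −0.85 at Alx4, the end nearest 0 or above coming without KO replicate 3. The difference in the number of regions with a peak ranged from −9.17 to −0.67, with the smallest difference without KO replicate 3. Msx2 and that number kept their direction under every alternative run. Ranked by fold, Msx2 gave −11.3 with the groups overlapping (exact permutation p = 0.5). No alternative joined fold with leaving out KO replicate 3, where the fold itself was higher in KO by 2.53. That direction of the fold held at every member region with a peak in all 6 libraries. With the replicate block, by exact sign flips that cannot give a p below 0.25, the differences stay as they are, −19.3 at Msx2 (exact paired p = 0.25) and −6 in the number of regions (exact paired p = 0.5). It changed no call. The replicate numbers are shared labels only. The lists give no read depth, which limits every absence reported.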
